A study of Mus musculus with 6 samples.

Results

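Lipolysis in fat cells, the release of fatty acids from stored triglyceride, is controlled by hormone receptors that act on cyclic AMP. Receptors coupled to the stimulatory G protein Gs raise cAMP through adenylyl cyclase, receptors coupled to the inhibitory protein Gi lower it, and phosphodiesterases break it down. cAMP binds the regulatory subunits of protein kinase A (PKA) and frees the catalytic subunits, which phosphorylate proteins at the lipid droplet. The genes followed here are the Gs-coupled receptors Adrb1, Adrb3 and Tshr, the Gi-coupled receptors Ptger3 and Adora1, the natriuretic peptide clearance receptor Npr3, the cyclase Adcy6, the phosphodiesterase Pde3b and the PKA regulatory subunit Prkar2b. They were listed by name with earlier results of these data known, and a gene was kept when the array annotation assigned a row of values to it alone. This gave 6 of the 9 genes, out of 14860 genes tested, with 1 row each. Adrb1, Adrb3 and Adora1 are not analysed here, because the annotation used lists no row for them. The comparison of stimulatory with inhibitory receptors therefore rests on Tshr and Ptger3 among the chosen genes.

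The values come from 3T3-L1 adipocytes, cells of a mouse pre-adipocyte line under 6 passages that had been turned into fat cells with an adipogenic cocktail for 7 days and were then kept in RPMI1640 with 10% FBS per the labels (the methods name DMEM for 3T3-L1 cells). In the LCM group, 3 cultures were kept for 24 hours in leukemia cell conditioned media (LCM). The control group was 3 cultures in regular media, which the labels do not describe beyond the medium just named. Per the labels, LCM came from 8093 cells, a mouse acute lymphoblastic leukemia line, grown for 48 hours in RPMI1640 with 10% FBS, IL-3 and beta-mercaptoethanol (BME), whereas the methods name human BV173 cells. All cultures are of a single line. The labels call them biological replicates without saying whether they were differentiated separately, so p-values measure only the spread between these cultures.

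Array medians ranged from 7.60 to 7.68 on the log2 scale, and arrays correlated at 0.979 to 0.994 over all rows. Control replicate 2 correlated with the other controls at 0.980 and 0.984, against 0.987 between those. Control replicate 3 correlated with LCM replicates 1 and 2 at 0.989 each, higher than with either other control. Of 12 measured adipocyte markers 11 had a lower mean in LCM and 5 fell (Gpd1, Retn, Adipoq, Cidec and Dgat2), with a median log2 change of -0.44. Among all 14860 genes tested, 8538 had a lower mean and 1.97 percent fell, with a median of -0.03. Without control replicate 2, 7 of the 12 markers fell, and without any other single array 1 to 2. Their summed log2 level was 15.79 to 15.89 in control and 15.32 to 15.43 in LCM. Adipoq, which encodes adiponectin, was at 12.66 or above on every array. Of 11 pre-adipocyte and fibroblast markers none passed the test, at a summed level of 14.99 to 15.20 in control and 15.18 to 15.30 in LCM. None of 5 measured B-lineage markers passed. Ptprc, which encodes CD45, and Blnk lay below the first quartile of values on all 6 arrays and Cd79a on 2, whereas Cd79b, at 6.04 to 6.62, and Pax5, at 6.65 to 6.84, did so on none. Of 5 macrophage markers Cd68 rose, of 6 smooth muscle markers Actg2 fell, and the other markers of both lists did not pass. Actg2 passed in 0 of the 6 subsets that leave out a single array (adjusted p = 0.0584 to 0.123 from limma). The part of the adipocyte shift in the results below was not tested. In such bulk samples, fewer cells of a type and less RNA per cell cannot be told apart.

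With LCM, Tshr, Npr3 and Prkar2b fell, none of the 6 genes rose, and Ptger3, Pde3b and Adcy6 did not pass (adjusted p under 0.05 from limma, n = 3 per group). The falls were 2.27-fold for Tshr, 1.36-fold for Npr3 and 1.46-fold for Prkar2b. Among all genes tested, 1.97 percent fell by the same rule and 2.29 percent rose, and since the 9 genes were listed with results known, their share is a description. The LCM values of 5 of the 6 genes all lay below every control value, a pattern found in 14.7 percent of all genes. The calls were close to the threshold: all 3 genes also passed without control replicate 2, and 0 of them passed when any other single array was left out, although their unadjusted p from limma was at most 0.00616 in each of these subsets. Of all genes, 4.39 percent fell without control replicate 2, 0.471 and 1.13 percent without control replicates 1 and 3, and 0.222, 0.222 and 0.141 percent without LCM replicates 1, 2 and 3.

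**Figure D1:**
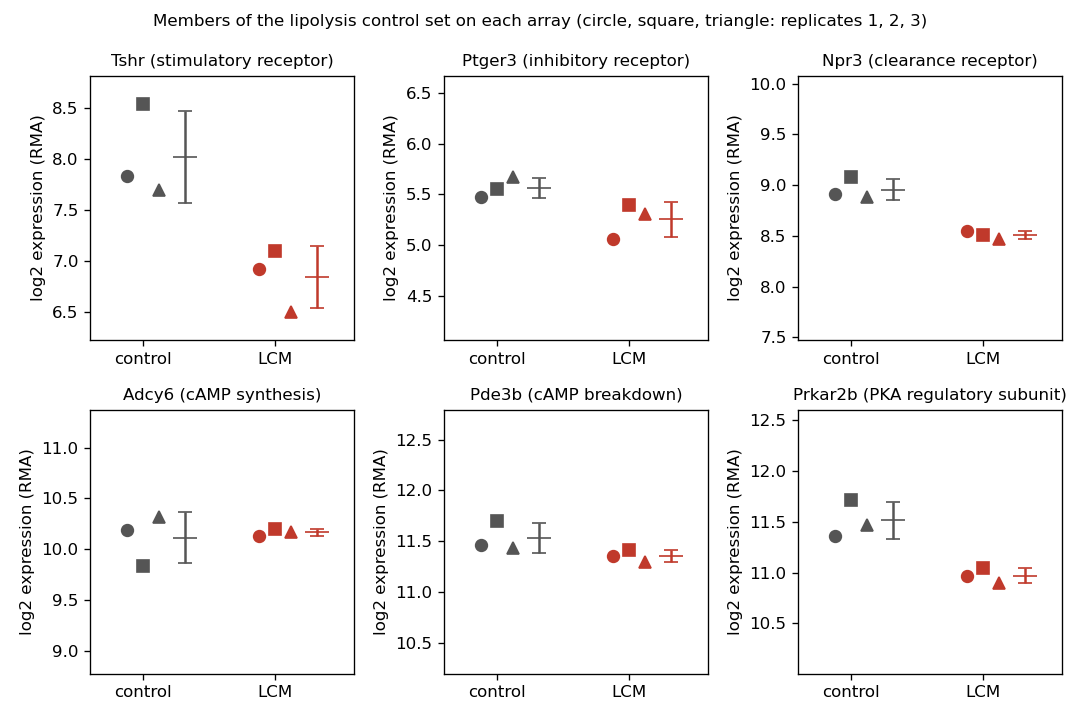
Log2 expression (RMA) of the 6 measured genes on each array, with controls in grey and LCM in red; circles, squares and triangles are replicates 1, 2 and 3, and bars are the mean with SD (n = 3). All panels span the same width of log2 units. Tshr falls from 8.03 to 6.84 and its groups are well apart, whereas those of Adcy6 overlap.

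Tshr encodes the receptor for thyroid-stimulating hormone, a Gs-coupled receptor that fat cells carry as well as the thyroid and that stimulates lipolysis. Its log2 expression was 7.83, 8.54 and 7.70 in control replicates 1, 2 and 3, and 6.92, 7.10 and 6.50 in LCM replicates 1, 2 and 3. The groups did not overlap, with 0.60 log2 units between the lowest control and the highest LCM culture, and control replicate 2 was the highest of all. The means were 8.03 ± 0.45 in control and 6.84 ± 0.31 in LCM (SD, n = 3). The log2 change of Tshr was -1.18 (standard error 0.24, 95% interval -1.75 to -0.62, adjusted p = 0.0424 from limma). Without control replicate 2 the log2 change was -0.93 (adjusted p = 0.0284 from limma), and without the other arrays in turn the adjusted p from limma was 0.0526 to 0.157.

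Ptger3 encodes the EP3 receptor for prostaglandin E2, a Gi-coupled receptor that restrains lipolysis. Its log2 expression was 5.47, 5.55 and 5.67 in control and 5.06, 5.39 and 5.31 in LCM. The groups did not overlap but were 0.07 apart, and on all 6 arrays the values lay below the first quartile of all rows. The log2 change was -0.31 (standard error 0.11, 95% interval -0.56 to -0.06, adjusted p = 0.172 from limma). It did not pass in any of the 6 subsets that leave out a single array.

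Npr3 encodes the clearance receptor for natriuretic peptides, which takes up and removes peptides that drive lipolysis through cGMP in human fat cells, and it can also couple to Gi. Its log2 expression was 8.91, 9.08 and 8.88 in control and 8.55, 8.51 and 8.47 in LCM. The LCM cultures lay within 0.08 of each other and all below the controls, with a gap of 0.32. The log2 change of Npr3 was -0.45 (standard error 0.08, 95% interval -0.64 to -0.26, adjusted p = 0.0294 from limma), and the change without control replicate 2 was -0.38 (adjusted p = 0.0194 from limma). The signalling receptors Npr1 and Npr2, which make cGMP, had log2 changes of -0.09 and 0.01 and did not pass.

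Adcy6 encodes an adenylyl cyclase that Gs stimulates and Gi inhibits. Its log2 expression was 10.19, 9.83 and 10.32 in control and 10.13, 10.20 and 10.17 in LCM. The groups overlapped, and control replicate 2 was the lowest culture. The log2 change was 0.06 (standard error 0.13, 95% interval -0.24 to 0.35, adjusted p = 0.849 from limma), and it was -0.09 without control replicate 2.

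Pde3b encodes the phosphodiesterase through which insulin lowers cAMP in fat cells. Its log2 expression was 11.46, 11.70 and 11.43 in control and 11.35, 11.41 and 11.29 in LCM. All LCM values were lower, with a gap of only 0.03 between the groups. The log2 change was -0.18 (standard error 0.09, 95% interval -0.40 to 0.03, adjusted p = 0.331 from limma), and without control replicate 2 it was -0.10.

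Prkar2b encodes RIIbeta, the PKA regulatory subunit that is abundant in fat and brain. Its log2 expression was 11.36, 11.71 and 11.47 in control and 10.97, 11.04 and 10.90 in LCM. The groups were 0.32 apart, and control replicate 2 was again the highest. The log2 change of Prkar2b was -0.54 (standard error 0.10, 95% interval -0.79 to -0.30, adjusted p = 0.0350 from limma), and the change without control replicate 2 was -0.44 (adjusted p = 0.0214 from limma). The other regulatory subunits Prkar1a, Prkar1b and Prkar2a had log2 changes of -0.07, -0.06 and 0.02 and did not pass.

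Tshr, Npr3 and Prkar2b followed each other closely over the 6 arrays, with Pearson's r of 0.967 for Tshr with Npr3, 0.976 for Tshr with Prkar2b and 0.977 for Npr3 with Prkar2b. Pde3b correlated with these genes at 0.871 to 0.949. Adcy6 ran the other way, at -0.451 to -0.746 with these 4 genes and 0.02 with Ptger3. These values describe 6 points that share the same 2 groups and the same high control culture: control replicate 2 was the highest control for Tshr, Npr3, Pde3b and Prkar2b, 4 of the 6 genes. Over the same arrays the genes with the pattern most like Tshr were St3gal6 (r = 0.997), Fam13a (r = 0.996) and Lair1 (r = 0.996). Those most like Npr3 were Adgrl3 (r = 0.9998), Fbln5 (r = 0.999) and Celf1 (r = 0.998), and those most like Prkar2b were Cs (r = 0.998), Sfpq (r = 0.998) and Dsn1 (r = 0.997). These genes were picked for the highest r among all genes tested, so their r is high by selection. Of them, St3gal6, Adgrl3, Fbln5 and Dsn1 fell and the others did not pass. Lair1 lay below the first quartile on all 6 arrays.

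RefSeq promoters (build GRCm38.p6, 250 bases before to 50 after the start) were listed for 3 of the 6 measured genes, Npr3, Prkar2b and Ptger3. The following pair is shown because both genes fell together, and capitals mark matches on either strand to the cAMP response element TGACGTCA, its core TGACG, the CCAAT box CCAAT, the GC box GGGCGG or the TATA box TATAAA. The first is Npr3 at chr15:11907322-11907621, minus strand, and the next is the upstream of the 2 listed starts of Prkar2b at chr12:32061228-32061527, minus strand.
Npr3: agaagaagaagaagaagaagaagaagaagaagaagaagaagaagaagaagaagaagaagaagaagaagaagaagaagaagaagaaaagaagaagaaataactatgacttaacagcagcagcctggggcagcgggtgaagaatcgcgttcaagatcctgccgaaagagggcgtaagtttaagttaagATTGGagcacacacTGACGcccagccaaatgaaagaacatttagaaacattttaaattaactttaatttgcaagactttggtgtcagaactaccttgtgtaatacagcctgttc
Prkar2b: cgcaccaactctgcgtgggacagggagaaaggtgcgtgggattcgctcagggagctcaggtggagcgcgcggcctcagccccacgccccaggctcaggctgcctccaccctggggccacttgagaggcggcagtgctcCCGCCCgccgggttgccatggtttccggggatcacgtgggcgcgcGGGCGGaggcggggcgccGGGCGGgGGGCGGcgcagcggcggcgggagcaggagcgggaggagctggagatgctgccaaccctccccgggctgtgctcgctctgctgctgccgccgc
The Npr3 promoter holds 1 TGACG core, which begins 50 bases before the start, and 1 CCAAT box, which begins 64 bases before it, on the opposite strand. The Prkar2b promoter holds 4 GC boxes, beginning 112, 67, 49 and 42 bases before the start, and none of the other motifs. The other listed start of Prkar2b holds 0 of the 5 motifs, and the promoter of Ptger3, which did not pass, holds 3 GC boxes. Neither printed sequence held the full cAMP response element or the TATA box. Of 32851 promoters in the table, 1.79 percent hold the full element, 20.8 percent the core (which is part of the full element), 37.4 percent the CCAAT box, 35.7 percent the GC box and 13.6 percent the TATA box. The GC content was 39.0 percent for Npr3 and 75 percent for Prkar2b, against a median of 52.7 percent. A match describes letters in this window and is not a binding site.

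The changes of the stimulatory receptor, the inhibitory receptor and the breakdown enzyme were then set against each other within arrays. The difference of log2 changes was -0.88 for Tshr minus Ptger3 (standard error 0.35) and -1.0 for Tshr minus Pde3b (standard error 0.23). Ptger3 lay below the first quartile on all 6 arrays, so a difference with it may not measure its change. For both pairs the within-array differences of the groups did not overlap. The exact two-sided permutation p was 0.1 for each (adjusted p = 0.15 over 3 pairs). This p is the smallest that 3 against 3 arrays can give, and it lies above the threshold used for the genes. No pair could therefore pass, so this test cannot decide whether the changes differ. The changes of Ptger3 and Pde3b differed by -0.12 (standard error 0.15, exact permutation p = 0.5, adjusted p = 0.5), and those groups overlapped. Leaving out each array in turn gave -1.09 to -0.61 for Tshr minus Ptger3, -1.11 to -0.83 for Tshr minus Pde3b and -0.21 to -0.02 for Ptger3 minus Pde3b, the last near 0 without LCM replicate 1 or control replicate 3.

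Beyond the chosen genes, a few stimulatory and a few inhibitory receptors fell in LCM. Of 22 measured Gs-coupled receptors and their partners, 3 fell and none rose, and 19 had a lower mean, against 8538 of all 14860 genes. Fshr and Vipr2 were dim, below the first quartile on all 6 arrays, with log2 changes of -0.08 and -0.06. Besides Tshr, the receptors that fell were Mc2r, the receptor for ACTH, which stimulates lipolysis in rodent fat cells, and Mc5r, another melanocortin receptor. The log2 expression of Mc2r was 9.11, 9.54 and 9.10 in control and 8.27, 8.41 and 8.06 in LCM, a 2.0-fold fall (adjusted p = 0.0148 from limma). Mc5r fell by 0.34 on the log2 scale, from 8.23 ± 0.09 to 7.88 ± 0.01 (SD, n = 3, adjusted p = 0.0490 from limma). Calcrl, which binds adrenomedullin together with a RAMP partner, was at -0.38 and did not pass.

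Of 17 measured Gi-coupled receptors, 2 fell and none rose, and 15 had a lower mean, against 8538 of all 14860 genes. Adora3, Mtnr1a, Mtnr1b, Npy2r and Ptger3 were dim, below the first quartile on all 6 arrays. Their log2 changes were -0.11, -0.03, -0.01, -0.17 and -0.31. The 2 that fell, Hcar1 and Hcar2, were receptors for metabolites that restrain lipolysis. Hcar1, the lactate receptor, was at 10.26, 10.24 and 10.01 in control and 9.23, 9.38 and 9.01 in LCM, a 1.95-fold fall (adjusted p = 0.00973 from limma). Hcar2, the receptor for beta-hydroxybutyrate and niacin, fell 1.62-fold, from 10.30 ± 0.14 to 9.60 ± 0.09 (SD, n = 3, adjusted p = 0.0130 from limma). Sucnr1, the succinate receptor, had a log2 change of -0.64 and did not pass. The Gs and Gi lists had median log2 changes of -0.12 and -0.17, against -0.03 over all genes tested, and 13.6 percent of the Gs and 11.8 percent of the Gi list passed, against 4.26 percent of all genes.

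For the enzymes of cAMP, none of 9 measured adenylyl cyclases passed, with log2 changes between -0.10 and 0.23 and a median of 0.02. Adcy2, Adcy8 and Adcy10 were dim, below the first quartile on all 6 arrays, so their values may not measure a change. Of 15 measured phosphodiesterases that act on cAMP, 2 fell and none rose, at a list median of -0.05. Among all genes tested, 1.97 percent fell and 2.29 percent rose, and this list too was drawn up with results known. Pde1c, Pde3a, Pde8a and Pde8b of this list were dim, below the first quartile on all 6 arrays. Pde1a, which calcium and calmodulin activate, was at 10.88, 10.97 and 10.78 in control and 10.35, 10.38 and 10.20 in LCM, and fell by 0.57 (adjusted p = 0.0165 from limma). Pde4b, a cAMP-specific enzyme, was at 7.60, 7.90 and 7.45 in control and 7.17, 7.05 and 6.94 in LCM, and fell by 0.60 (adjusted p = 0.0466 from limma). Both were lower in each LCM culture than in any control, a pattern found in 14.7 percent of all genes. Pde7a and Pde4d, 2 further cAMP-specific enzymes, had log2 changes of -0.25 and -0.20 and did not pass. Pde4d has more than 1 row, and the mean of its rows gave a log2 change of -0.08.

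Of 16 G protein subunits none passed. The lowest adjusted p was that of Gng3, a gamma subunit, which was dim at 5.84, 5.89 and 5.94 in control and 4.98, 5.0 and 5.56 in LCM (log2 change -0.71, adjusted p = 0.0524 from limma). Its groups did not overlap, and it passed in 1 of the 6 subsets that leave out a single array. Gnas, which encodes the alpha subunit of Gs, had a log2 change of -0.02, and Gnai2 and Gnai3 of Gi had -0.10 and 0.10. Among 9 PKA subunits and inhibitors, Prkar2b fell and the rest did not pass, with the catalytic subunits Prkaca and Prkacb at -0.26 and 0.17. None of 10 A-kinase anchors, 4 other cAMP effectors and 15 genes of receptor desensitization passed, at list medians of 0.01, -0.09 and -0.08. Of 13 genes of natriuretic peptide and cGMP signalling, Npr3 fell and the others did not pass. Ostn, which encodes a ligand of Npr3, had a log2 change of 0.41 (adjusted p = 0.247 from limma).

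Of 17 genes of cAMP-responsive transcription, Sik1 rose and Sik2 fell, whereas 2.29 percent of all genes rose and 1.97 percent fell. The list median was 0.12, against -0.03 over all genes tested. Every LCM value lay above every control in 5 of the 17 and below in 2, against 1902 and 2186 of all 14860 genes. Sik1, a kinase that cAMP induces, was at 10.50, 10.45 and 10.55 in control and 10.94, 10.88 and 10.98 in LCM, a 1.35-fold rise (adjusted p = 0.0203 from limma). Sik2, its relative in fat cells and a PKA substrate, was at 11.24, 11.38 and 11.29 in control and 10.78, 10.86 and 10.90 in LCM, a 1.37-fold fall (adjusted p = 0.0219 from limma). The replicates of both genes were tight and the groups did not overlap. Among other cAMP-inducible genes of the list, Nr4a1, Nr4a3, Crem, Per1 and Ppargc1a, at 0.13, -0.15, 0.20, 0.15 and -0.27, did not pass. Nor did Fos, Junb, Nr4a2 and Dio2, at 0.06, 0.17, -0.10 and -0.13. Nr4a3 and Dio2 were dim, below the first quartile on all 6 arrays. Atf1 and Creb1 of the same list were at 0.29 and 0.30 (adjusted p = 0.0642 and 0.157 from limma) and did not pass. Their LCM values all lay above every control.

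**Figure D2:**
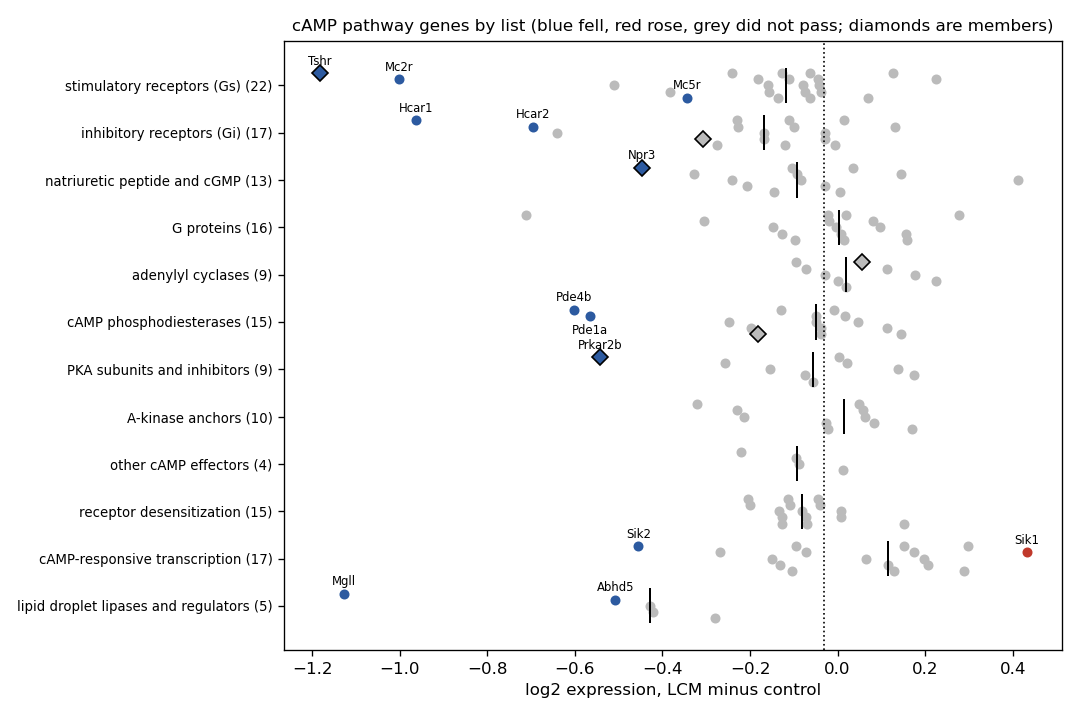
Log2 difference between LCM and control for 152 measured genes in 12 lists of the cAMP pathway, with the number measured in brackets. Blue genes fell and the red gene rose at an adjusted p under 0.05, diamonds are the chosen genes, black bars are list medians and the dotted line is the median of all genes, -0.03. Falls appear among both Gs and Gi receptors and none among the cyclases, G proteins or anchors.

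Among 5 measured lipid droplet lipases and regulators, Mgll and Abhd5 fell by 1.13 and 0.51. Mgll is the monoglyceride lipase, and Abhd5 is the activator of adipose triglyceride lipase. Plin1, Pnpla2 and G0s2 did not pass, at -0.43, -0.28 and -0.42. Without control replicate 2 all 5 genes fell, when 4.39 percent of all genes did. Without any other single array, 1 to 2 of the 5 fell. Lipe, which encodes hormone-sensitive lipase, had no row assigned to it alone and was not analysed. In all, 12 of the 152 pathway genes fell and 1 rose, 8.55 percent against 4.26 percent of all genes, for lists likewise drawn up with results known. Without control replicate 2, 19 fell and 3 rose, and without any other single array 1 to 7 fell and 0 or 1 rose. Of the 13 genes, Mgll alone passed in each of the 6 subsets. Hcar1 passed in 4 of them, Mc2r and Hcar2 in 3, Pde1a, Pde4b, Abhd5 and Sik1 in 2, and Tshr, Npr3, Prkar2b, Mc5r and Sik2 in 1.

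**Figure D3:**
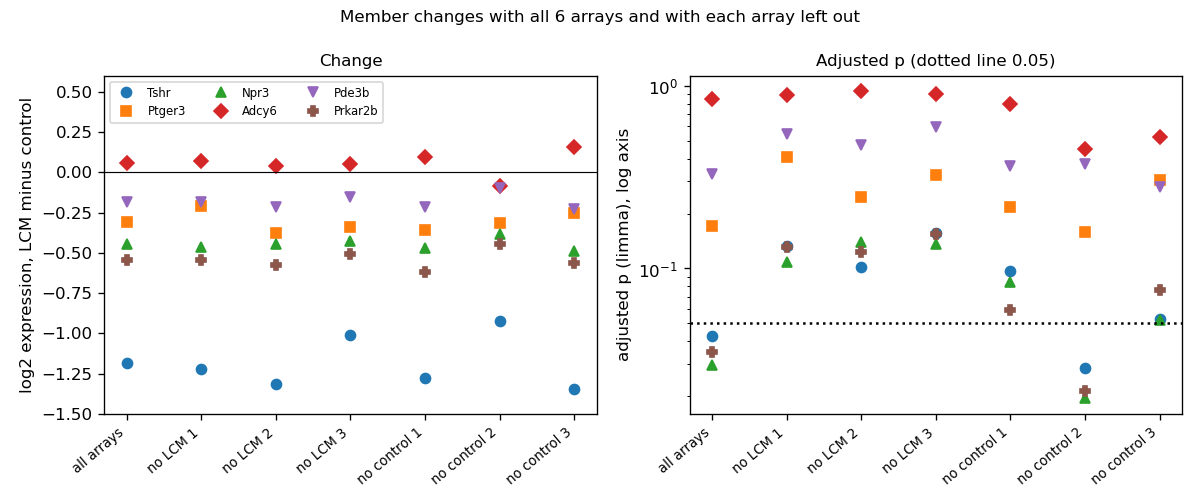
Log2 difference between LCM and control (left) and adjusted p from limma on a log axis (right) for the 6 measured genes, with all arrays and with each array left out. Tshr, Npr3 and Prkar2b stay below 0 in every subset, and their adjusted p lies under the dotted line at 0.05 with all arrays and without control replicate 2.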

How the data were processed

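RNA of 6 cultures was hybridized to Affymetrix arrays, named in the methods as GeneChip Mouse Gene ST. The deposited values are log2 expression made by the authors with RMA (background correction, quantile normalization, probe summary), in 1 column per array; its version, settings and genome build are not stated. Rows were matched to genes by the platform's annotation table, checked against RefSeq (GRCm38.p6): of 23332, 14996 had 1 symbol, 1019 several and 7317 none listed. The row with the highest mean stood for each of 14860 genes. Groups were compared with limma 3.58.1 (lmFit, eBayes, two-sided, no block) in R 4.3.3, with Benjamini-Hochberg adjustment over all genes at a threshold of 0.05. Since the methods give only paired t-tests in general, t-tests were alternatives, beside other row choices, filters on dim genes, rescaling, other variance models, weights, blocking by replicate number and each array left out. The 3 differences between genes were tested exactly with scipy 1.17.1. The fit was tested on simulated data with known rises, of which it recovered 53.7 percent at 1.5-fold, 83.6 percent at 2-fold and 92.4 percent at 3-fold. A gene that did not pass may thus still have changed, and the number of arrays limits the precision.

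The members and lists were chosen with earlier results of these data known. The 12 textbook pathway lists hold 186 genes, of which 152 were measured. Named genes were taken from the members, up to 4 others per list (lowest adjusted p) and the 3 genes that correlated best with each member that passed. Npr1, Npr2, Prkar1b, Prkar2a, Gnas, Gnai2, Gnai3, Nr4a1, Nr4a3, Crem, Per1, Ppargc1a and G0s2 were added after their values were seen. Fos, Junb, Nr4a2, Dio2 and the list genes named only as dim were likewise added. Summed marker levels are log2 of summed unlogged values. Figures were drawn with matplotlib 3.10.9.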

Additional observations from a re-analysis of the deposited data

How the results depend on the processing

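Against 3 members that fell, 13 pathway genes and 633 genes in all that passed by limma, 0 members, 5 pathway genes and 275 rows passed when all 23332 rows were tested. An unpaired t-test, whereas the methods name a paired one, gave 0, 2 and 170 after Benjamini-Hochberg adjustment. Array weights gave 3 members, 23 pathway genes and 1864 genes. Leaving out each array in turn gave 0 to 3 members that fell, 1 to 22 pathway genes and 60 to 1332 genes, the highest without control replicate 2. The t-test paired by replicate number gave 0, 0 and 0 (3 of 6 members and 1761 genes at its unadjusted p under 0.05, against 4 members by limma). With the replicate number as a block in limma, 324 genes passed, and of the members Tshr (adjusted p = 0.0117) and Prkar2b (adjusted p = 0.0497) passed but Npr3 did not (adjusted p = 0.0741). The numbers are not known to pair cultures: same-numbered arrays deviated from their group means with correlations of -0.234, 0.055 and 0.112. No member rose under any of the 18 alternatives run. The log2 changes of Tshr, Npr3 and Prkar2b stayed below 0 in all of them, at -1.35 to -0.90, -0.50 to -0.38 and -0.62 to -0.43. Tshr is not among the genes above the median of gene means, and Ptger3 is under both filters on dim genes, so those settings give no value for them. The causes of the lost calls were not tested.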
